A study of Mus musculus with 6 samples.

Results

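Expression of Hdc, the gene of histidine decarboxylase, and of the mast cell genes Cpa3, Kit, Fcer1a, Ms4a2, Cma1 and Tpsb2 was examined in sorted peritoneal macrophages. These 7 genes were taken by symbol, and all 7 had a row among the 754 gene probes of the NanoString nCounter panel. Hdc and Cpa3 were selected on earlier results of the same comparison, in which both lay higher in the IRF5-NP samples, so that their differences are a description and carry no test. The other 5 genes were named as mast cell genes. The cells came from adult C57BL/6J mice that had received ID8 ovarian tumor cells 7 weeks before treatment. The control group (3 samples) was given 2 i.p. doses of PBS, and the treated group (3 samples) was given 2 i.p. doses of nanoparticles with 30 µg of mIRF5 mRNA, in both cases on days 1 and 5. All animals carried tumors, and no sample without tumor or with nanoparticles of another mRNA was analysed here. The methods of the study describe albino B6 females that were younger at inoculation, a shorter time to treatment and a larger dose than the labels do. The paper names mRNAs of both IRF5 and its kinase IKKβ as the cargo of its treatment, whereas the dose given above names mIRF5 alone. The cells were sorted as F4/80+, CD11b+ from peritoneal lavage, and nothing in the labels says whether a sample is 1 mouse or a pool.

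Histidine decarboxylase is the enzyme that makes histamine from histidine. Mast cells, which live in the peritoneal cavity and come out with a lavage, and basophils store histamine in granules and release it when their IgE receptor is crosslinked. Macrophages and neutrophils can also make histamine through induced Hdc, without storing it in such granules. Mast cell granules also hold proteases, among them carboxypeptidase A3 (Cpa3), chymase (Cma1) and a tryptase (Tpsb2). KIT is the receptor for stem cell factor that mast cells need for survival, and Fcer1a and Ms4a2 encode the alpha and beta chains of the IgE receptor. Mast cells generally lack F4/80, on which the cells were sorted, but the methods state no purity of the sort.

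The upstream sequence of the 3 genes with a value above background in an IRF5-NP sample that also exceeded every PBS value (Hdc, Cpa3 and Cma1) is shown, since these are the genes on which the comparison of Hdc with mast cell proteases turns. Each line gives the 250 bases before the annotated start in RefSeq, build GRCm38.p6, read 5′ to 3′ on the gene's strand (minus for all 3): chr2:126618679-126618928 for Hdc, chr3:20242182-20242431 for Cpa3 and chr14:55944676-55944925 for Cma1. Capitals mark a GATA-type motif (AGATAA or AGATAG or TGATAA or TGATAG, on either strand) or the GC box GGGCGG on either strand, and none of the marked matches overlap.
Hdc: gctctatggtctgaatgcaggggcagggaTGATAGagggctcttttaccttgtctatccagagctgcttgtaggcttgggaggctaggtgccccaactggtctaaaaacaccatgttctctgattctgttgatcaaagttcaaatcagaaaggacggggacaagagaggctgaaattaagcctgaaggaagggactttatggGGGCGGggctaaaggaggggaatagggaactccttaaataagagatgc
Cpa3: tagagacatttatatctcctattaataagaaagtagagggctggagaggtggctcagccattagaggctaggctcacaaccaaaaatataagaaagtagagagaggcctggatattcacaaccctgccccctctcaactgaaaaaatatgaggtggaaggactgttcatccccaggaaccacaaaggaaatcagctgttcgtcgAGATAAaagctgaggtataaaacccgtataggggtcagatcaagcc
Cma1: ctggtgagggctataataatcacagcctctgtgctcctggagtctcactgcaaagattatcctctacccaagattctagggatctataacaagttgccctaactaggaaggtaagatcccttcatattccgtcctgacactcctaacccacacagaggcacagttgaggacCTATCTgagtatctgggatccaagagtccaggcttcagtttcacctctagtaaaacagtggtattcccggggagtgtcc
The Hdc window held 1 GATA-type match, which begins 221 bases before the start, and 1 GC box, which begins 48 bases before it. The Cpa3 window held 1 GATA-type match, 46 bases before the start, and the Cma1 window held 1, 79 bases before it. A GATA-type match was found in 26.5% of 32851 promoter windows of this length and a GC box in 32.7%. Of the 6 genes with a window (all but Tpsb2), 5 held a GATA-type match and Kit held none. No binding was measured here, and the matches describe the letters of these windows.

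In the nCounter assay, barcoded probes hybridised to their transcripts are counted directly, with no amplification. The values are such counts after the authors scaled them to housekeeping genes. Divided by 1 scaling factor per sample, the values were whole counts that summed to between 683472 and 1830318 per sample. The factor was 2.60 in IRF5-NP replicate 3 and 0.952 to 1.25 in the other samples. Background was taken from the 8 negative control probes, which have no target in the cells, at 2 SD above their mean. The scaled background lay between 25.6 and 37.8 normalized counts in 5 samples, and IRF5-NP replicate 3 stood apart at 79.4. No difference beyond the sampling noise of their counts was found between PBS replicates 2 and 3 (chi-square divided by its degrees of freedom 1.07, p = 0.0782). That quotient was 7.07 for IRF5-NP replicates 2 and 3, the next nearest pair, and at least 54.0 for the remaining pairs within a group. PBS replicates 2 and 3 were averaged and counted as 1 sample, so that means and fits rest on 2 PBS and 3 IRF5-NP samples. All 7 of the macrophage genes listed with values, including Adgre1 (F4/80) and Itgam (CD11b), were above background in every sample.

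Hdc was above background in all 6 samples, and it was the only one of the 7 genes for which this held. The Hdc level was 143, 221 and 242 normalized counts in PBS replicates 1, 2 and 3. It was 415, 865 and 813 normalized counts in IRF5-NP replicates 1, 2 and 3. Every IRF5-NP sample lay above every PBS sample. The mean was 187 ± 62.3 normalized counts (SD, n = 2) in the PBS group and 698 ± 246 (SD, n = 3) in the IRF5-NP group. The log2 fold change of Hdc was 1.86 (standard error 0.37), which is a 3.63-fold difference on the scale of log2 values with a pseudocount of 1. As stated, this difference chose the gene and is not tested here. Over the whole panel, 17.0% of the genes had all IRF5-NP samples above all PBS samples, and 2.52% passed the limma threshold as higher.

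Depth was sufficient for an order of the Hdc levels. Before scaling, Hdc had 138, 214 and 193 counts in PBS replicates 1 to 3, and 436, 785 and 313 counts in IRF5-NP replicates 1 to 3. The low count in IRF5-NP replicate 3 stands beside the lowest total of any sample. With exact Poisson 95% intervals, which cover counting error only, PBS replicate 1 (120 to 169 normalized counts) lay below PBS replicate 2 (193 to 253) and PBS replicate 3 (209 to 278). The intervals of the latter pair overlapped. IRF5-NP replicate 1 (377 to 456) lay above these and below IRF5-NP replicate 2 (806 to 928) and IRF5-NP replicate 3 (726 to 909), whose intervals also overlapped. In all 6 samples the Hdc count was above each of the 8 negative control probes. The factor over background was smallest in PBS replicate 1, at 3.78, and largest in IRF5-NP replicate 2, at 33.8.

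**Figure D1:**
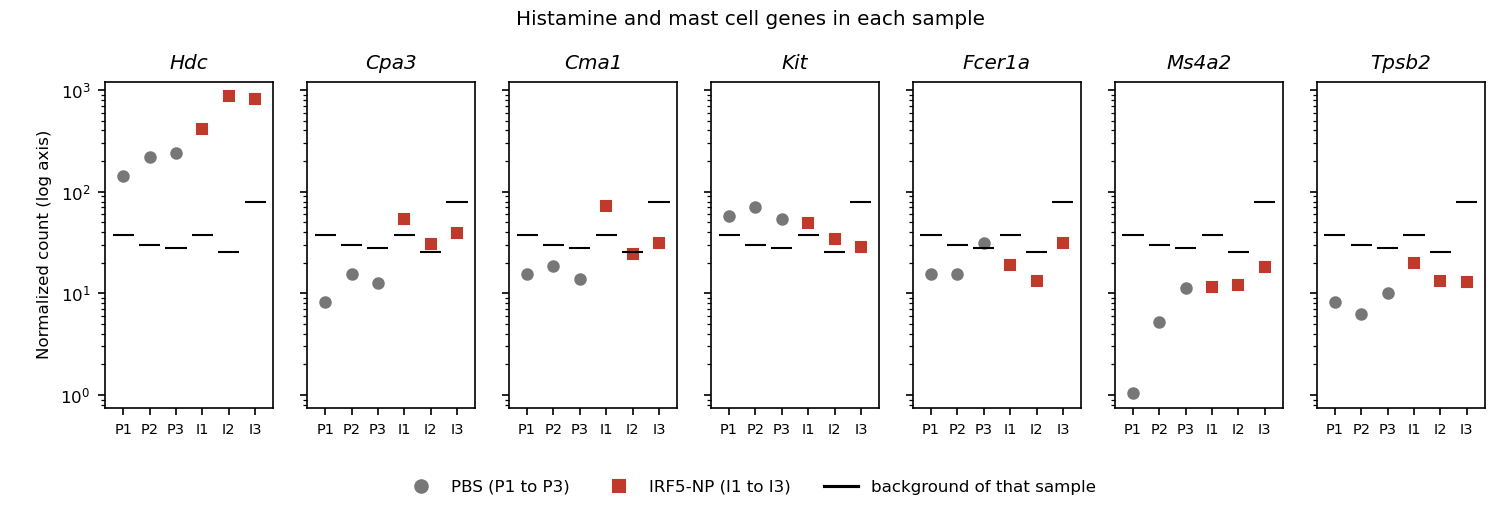
Normalized counts (log axis) of the 7 genes in PBS replicates 1 to 3 (P1 to P3, circles) and IRF5-NP replicates 1 to 3 (I1 to I3, squares), with the background of each sample as a short line. Hdc is above the line in 6 of 6 samples, Cpa3 in 2, Cma1 in 1, Kit in 5, Fcer1a in 1, and Ms4a2 and Tpsb2 in 0.

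Cpa3, the mast cell carboxypeptidase, was near background throughout. Its level was 8.30, 15.5 and 12.5 normalized counts in PBS replicates 1, 2 and 3, and 53.3, 30.9 and 39.0 in IRF5-NP replicates 1, 2 and 3. All PBS values were below background, and the IRF5-NP values were above it in replicates 1 and 2 and below it in replicate 3. The PBS mean was 11.1 ± 3.99 normalized counts (SD, n = 2), the IRF5-NP mean was 41.1 ± 11.4 (SD, n = 3), and the log2 fold change was 1.80 (standard error 0.40). This number is close to that of Hdc, but it sets 3 IRF5-NP values against PBS values that the negative controls also reach. In counts before scaling, Cpa3 had 8, 15 and 10 in the PBS samples and 56, 28 and 15 in IRF5-NP replicates 1, 2 and 3. The 15 counts of IRF5-NP replicate 3 were below the mean of the negative controls in that sample (17.3 counts), and the large scaling factor brought them to 39.0. The number of negative control probes below the Cpa3 count was 8 of 8 in IRF5-NP replicates 1 and 2, and between 0 and 2 in the other 4 samples. The change moved with the handling of background, to 2.96 (standard error 1.76) when the mean of the negative controls was subtracted and to 1.26 (standard error 0.29) with a pseudocount of 10.

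Cma1, the mast cell chymase, was clearly above background in IRF5-NP replicate 1 alone. Its level was 15.6, 18.6 and 13.8 normalized counts in PBS replicates 1, 2 and 3, all below background. It was 72.4 normalized counts in IRF5-NP replicate 1, against a background of 37.2, and 24.3 and 31.2 in replicates 2 and 3, both below background. In replicate 2 the 22 counts were above each of the 8 negative control probes and within 2 SD of their mean. The log2 fold change of Cma1 was 1.22 (standard error 0.49, limma adjusted p = 0.167), and without IRF5-NP replicate 1 it was 0.76 (limma adjusted p = 0.237). The tryptase gene Tpsb2 was below background in every sample, at 6.21 to 10.01 normalized counts with PBS and 13.0 to 20.0 with IRF5-NPs, and no fold change is given for it.

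Kit had the opposite direction from Hdc. Its level was 58.1, 71.4 and 53.8 normalized counts in PBS replicates 1, 2 and 3, and 49.5, 34.2 and 28.6 in IRF5-NP replicates 1, 2 and 3. The groups did not overlap, with every IRF5-NP value below every PBS value, and the value in IRF5-NP replicate 3 was below background. The PBS mean was 60.0 ± 2.78 normalized counts (SD, n = 2) and the IRF5-NP mean was 37.4 ± 10.8 (SD, n = 3). The log2 fold change was -0.70 (standard error 0.33, limma adjusted p = 0.245) and did not pass the threshold, where 7.03% of all genes passed as lower.

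Both measured chains of the IgE receptor stayed at the level of the negative controls. Ms4a2, the beta chain, was below background in 6 of 6 samples, with 1 to 9 counts in the PBS samples and 7 to 12 in the IRF5-NP samples. Fcer1a, the alpha chain, was above background in PBS replicate 3 alone, at 31.3 normalized counts against a background of 28.1. The other values of Fcer1a were between 13.2 and 31.2 normalized counts. The groups of Fcer1a overlapped, and its log2 fold change was 0.10 (standard error 0.45, limma adjusted p = 0.924). No fold change is given for Ms4a2, as for Tpsb2, since all of its values were below background. Of the 5 genes named as mast cell genes besides Cpa3, 0 passed limma's adjusted threshold in either direction. At an unadjusted p under 0.05 limma gave 2 of them, Ms4a2 and Cma1, and the methods' t-test gave 1, where the panel had 25.3% and 16.6%. All IRF5-NP values lay above all PBS values for 3 of the 5 genes (Ms4a2, Cma1 and Tpsb2) and below them for Kit. In the panel 17.0% of the genes were wholly above and 20.4% wholly below. Of the 9 IRF5-NP values of the first 3 genes, 8 were below background.

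Summed over Cpa3, Kit, Fcer1a, Ms4a2, Cma1 and Tpsb2, the mast cell signal was far above the mean of the negative controls in a single sample. The 6 genes had 103, 128 and 106 counts together in PBS replicates 1, 2 and 3, where 6 probes at the mean of the negative controls would have had 118, 122 and 90.8. They had 237, 116 and 62 counts in IRF5-NP replicates 1, 2 and 3, where 6 such probes would have had 128, 97.5 and 104. With 6 probes at background, these samples would have had 234, 139 and 183 counts, so that IRF5-NP replicate 1 barely exceeded that limit. IRF5-NP replicate 1 was the sample with the largest mast cell sum, and it had the lowest Hdc level of the IRF5-NP group. That place was not particular to Hdc, since all 7 macrophage genes listed with values were also lowest there within the group. Some listed genes, such as Ccl3, S100a8 and Kitl, were highest there instead. None of the 6 genes was at 0 counts in any sample. Because each sample measures many cells together, fewer cells of a type and less RNA per cell cannot be told apart.

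The ratio of Hdc to the mast cell genes was not constant across samples. The log2 ratio of Hdc to Cpa3 was 4.11, 3.83 and 4.27 in PBS replicates 1, 2 and 3, where Cpa3 was below background. It was 2.96, 4.81 and 4.38 in IRF5-NP replicates 1, 2 and 3. In the 2 samples with Cpa3 above background, IRF5-NP replicates 1 and 2, the ratio differed by 1.85 on the log2 scale. The log2 ratio of Hdc to Cma1 was 2.52 in IRF5-NP replicate 1 and 5.16 in replicate 2. The log2 ratio of Hdc to Kit was 1.30, 1.63 and 2.17 with PBS, and 3.07, 4.66 and 4.83 with IRF5-NPs. After the mean of the negative controls was subtracted, IRF5-NP replicate 1 kept 395 normalized counts of Hdc, 33.1 of Cpa3 and 52.1 of Cma1. IRF5-NP replicate 2 kept 847, 13.0 and 6.34, and in replicate 3 Hdc kept 769 while Cpa3 and Cma1 were below the negative control mean. The part of mast cells in the Hdc level was not tested, and these are the measurements that bear on it.

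Other genes of mast cells and of the cells around them were described by list, and each count of calls below stands against the 2.52% of all genes that passed as higher and the 7.03% that passed as lower. With so few genes in a list, a count of 0 or 1 is near these shares. The medians also include genes below background in every sample, so that they rest in part on values at background. Of 30 mast cell genes listed, 12 had values, and of the 11 without Cpa3, 0 passed as higher and 0 as lower, with a median log2 fold change of 0.10 against -0.03 over all 754 genes. The gene at that median was Fcer1a, above background in 1 sample. Gata2, a transcription factor of mast cells and basophils, was below background in every sample. Il1rl1, the receptor of IL-33, was above background in 1 sample, and Gata1 in PBS replicates 1 and 2. Of the 12 genes, 9 were above background in at least 1 sample and 3 in every sample: Lat2, Adora3 and Hpgds. The groups of Lat2 (1137 to 1677 normalized counts over all samples) and Adora3 (48.6 to 104) overlapped. Hpgds, the prostaglandin D synthase of hematopoietic cells, was well above background in all samples and lay lower with IRF5-NPs, at 149 to 221 normalized counts against 288 to 439. In the panel 20.4% of the genes were wholly lower, as Hpgds was. The log2 fold change of Hpgds was -0.99 (limma adjusted p = 0.0604), which did not pass. It passed with 6 separate samples (adjusted p = 0.0351) and with PBS replicate 3 left out (0.0481).

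Among 15 measured genes of the IgE receptor, KIT and lipid mediator list, 1 passed as higher and 0 as lower, with a median log2 fold change of 0.09. The gene that rose was Alox5, 5-lipoxygenase, which starts leukotriene synthesis. Alox5 had 610, 941 and 871 normalized counts in PBS replicates 1, 2 and 3, and 1507, 2436 and 2139 in IRF5-NP replicates 1, 2 and 3. As for Hdc, the groups did not overlap, and 17.0% of all genes were likewise wholly higher with IRF5-NPs. IRF5-NP replicate 1 was the lowest of its group, as it was for all 7 macrophage genes listed with values. The log2 fold change of Alox5 was 1.42 (standard error 0.28, limma adjusted p = 0.0218). Leaving out PBS replicate 1 gave 1.13 (adjusted p = 0.114), leaving out IRF5-NP replicate 2 gave 1.27 (adjusted p = 0.0595), and leaving out IRF5-NP replicate 3 gave 1.37 (adjusted p = 0.127), all short of the threshold. The call was also lost without a variance trend (adjusted p = 0.0578), with the negative control mean subtracted (0.131), with Benjamini-Yekutieli adjustment (0.157) and with the methods' t-test (0.248). Alox5ap, the protein that presents arachidonic acid to 5-lipoxygenase, did not pass, at 0.00 on the log2 scale (limma adjusted p = 0.994). Ptgs1, the constitutive cyclooxygenase, lay higher in every IRF5-NP sample, at 1784 to 2383 normalized counts against 1212 to 1608, without passing (0.63, limma adjusted p = 0.129). Kitl, the ligand of KIT, had 151 to 213 normalized counts with PBS and 96.1 to 241 with IRF5-NPs, and its groups overlapped.

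Of 14 cytokines and receptors that act on mast cells, 11 had values and 0 passed in either direction, with a median log2 fold change of 0.29. Among them Il4, Il5, Il13 and Il33 were below background in every sample, whereas Il9 was above it in 5 samples and Il3 in 3. Il3ra, the alpha chain of the IL-3 receptor, had 342 to 423 normalized counts with PBS and 394 to 663 with IRF5-NPs, and its log2 fold change was 0.54 (limma adjusted p = 0.296). None of the 10 listed genes of histamine receptors, uptake and breakdown had values analysed here.

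**Figure D2:**
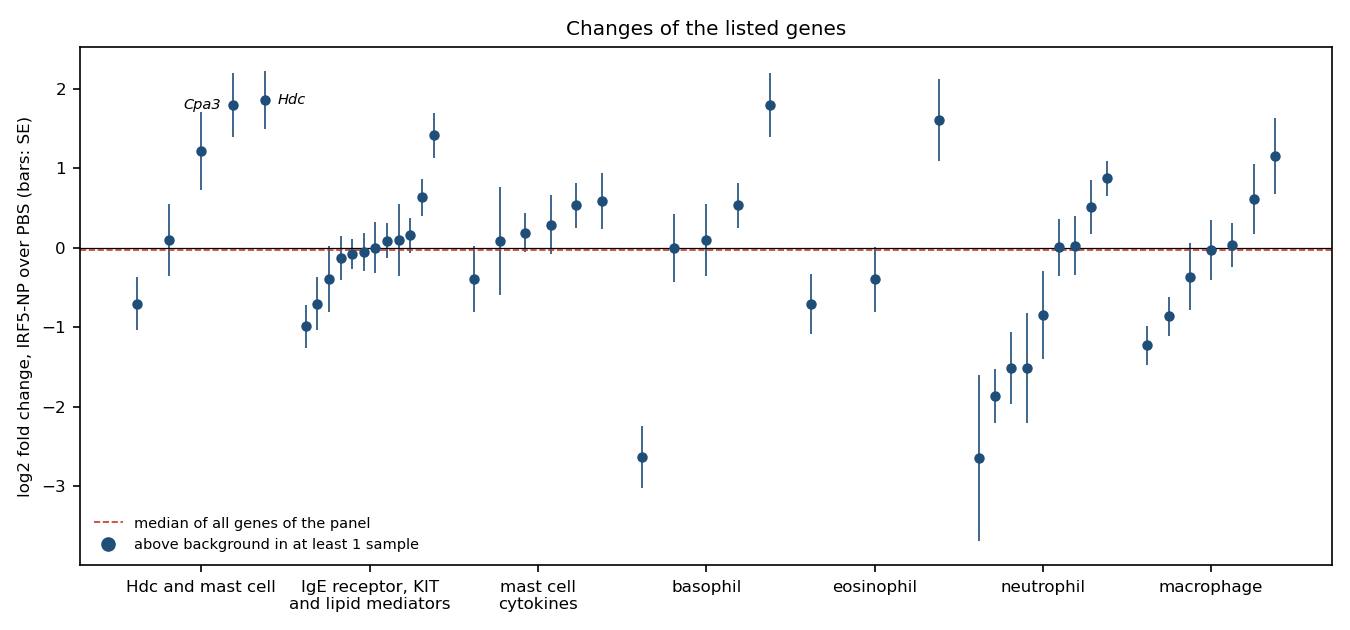
Log2 fold change of IRF5-NPs over PBS (vertical axis, bars are standard errors of the limma fit) for the genes of each list that were above background in at least 1 sample. Genes below background in every sample are not plotted. Hdc (1.86) and Cpa3 (1.80) stand at the top of the first list and Kit (-0.70) at its bottom, and the dashed line is the median of all 754 genes, -0.03.

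Markers of other cells that can make or store histamine were set beside Hdc. Of 9 basophil genes with values, 4 were below background in every sample, and of the 8 without Cpa3, 1 passed as lower, the chemokine gene Ccl3, which macrophages also make (log2 fold change -2.63, limma adjusted p = 0.00591, and 0.0650 with IRF5-NP replicate 3 left out, 0.107 with the negative control mean subtracted and 0.208 with the methods' t-test), and 0 as higher. Of 8 eosinophil genes with values, 0 passed in either direction. Siglecf, Ccr3, Epx, Prg2 and Il5ra were at 6.21 to 38.4 normalized counts, with Siglecf above background in PBS replicate 1 alone. The eosinophil list also holds Alox15, which peritoneal macrophages express, at 2944 to 10636 normalized counts with PBS and 12977 to 19604 with IRF5-NPs.

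Of 11 neutrophil genes with values, 1 passed as higher and 1 as lower, with a median log2 fold change of -0.16. The gene at that median, Camp, was below background in every sample. Csf3r, the receptor of G-CSF, rose from 424 to 445 normalized counts with PBS to 658 to 922 with IRF5-NPs (log2 fold change 0.88, limma adjusted p = 0.0459). Mmp8, neutrophil collagenase, fell from 83.9 to 157 normalized counts to 27.6 to 33.8 (log2 fold change -1.86, limma adjusted p = 0.0158). Its values in IRF5-NP replicates 1 and 3 were below background, and with the negative control mean subtracted the log2 fold change was -4.23 (adjusted p = 0.239), so that its size is not fixed. S100a8 and S100a9, abundant in neutrophils and also made by monocytes, had log2 fold changes of -1.51 (limma adjusted p = 0.0767) and -2.65 (limma adjusted p = 0.161). The defining marker Ly6g was at 22.5 to 44.2 normalized counts and above background in 1 sample. Summed over the neutrophil list, the level was 10467 to 17074 normalized counts with PBS and 8472 to 13938 with IRF5-NPs, most of it Fcgr3, an Fc receptor that macrophages also carry. Without Fcgr3, left out after its values were seen, the sum was 7276, 2364 and 2320 normalized counts in PBS replicates 1, 2 and 3, and 2655, 1661 and 1970 in IRF5-NP replicates 1, 2 and 3. This sum was highest in PBS replicate 1, where Hdc was lowest. Most of it there came from S100a8 (3405 normalized counts) and S100a9 (2598), and Ly6g was below background in that sample. The part of neutrophils in the Hdc level was not tested. Csf3r lost its call with PBS replicate 1 (adjusted p = 0.122), IRF5-NP replicate 2 (0.154) or IRF5-NP replicate 3 (0.201) left out. Mmp8 lost it with PBS replicate 1 (adjusted p = 0.103), IRF5-NP replicate 1 (0.0515) or IRF5-NP replicate 3 (0.0650) left out. Benjamini-Yekutieli adjustment gave adjusted p = 0.331 for Csf3r and 0.114 for Mmp8, and the methods' t-test gave 0.216 and 0.192. Csf3r was also short of the threshold without a variance trend (adjusted p = 0.105) and with the negative control mean subtracted (0.107).

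Of the macrophage genes, Adgre1, Itgam and Cd68 were highest in the samples in which Hdc was highest, Cd68 by little. Csf1r was highest in PBS replicate 1, where Hdc was lowest, and Cd14 in PBS replicate 2. Fcgr1 and Mertk lay lower in every IRF5-NP sample than in every PBS sample, as did 20.4% of all genes. Itgam had 15177 normalized counts in IRF5-NP replicate 1, below every PBS value (15550 to 19762). Adgre1, which encodes F4/80, had 6523 to 9145 normalized counts with PBS, 8749 in IRF5-NP replicate 1, and 25506 and 22544 in IRF5-NP replicates 2 and 3. Its log2 fold change of 1.15 did not pass (limma adjusted p = 0.181). Like Hdc, it was highest in IRF5-NP replicates 2 and 3, but unlike Hdc it did not separate IRF5-NP replicate 1 from the PBS samples. Of 7 macrophage genes with values, 0 passed as higher and 1 as lower, Mertk, a receptor for apoptotic cells (log2 fold change -1.23, limma adjusted p = 0.0218). The adjusted p of Mertk was 0.0580 to 0.121 with PBS replicate 1 or any 1 of the IRF5-NP samples left out, 0.0589 without a variance trend, 0.106 with the negative control mean subtracted, 0.157 with Benjamini-Yekutieli adjustment and 0.208 with the methods' t-test. Fcgr1, an Fc receptor, had 3871 to 4975 normalized counts with PBS and 1912 to 2793 with IRF5-NPs (log2 fold change -0.86, limma adjusted p = 0.0664). The part of these differences in the Hdc level was not tested.

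The genes whose profile was nearest to that of Hdc were found by the root-mean-square difference of log2 values, each gene centred on its mean over the 5 samples counted, among 629 genes above background in at least 1 sample. The nearest were Il27ra, a receptor chain of IL-27, at a difference of 0.15, then Fabp4, a fatty acid binding protein of macrophages and adipocytes, at 0.16, and P2rx1, an ATP-gated channel, at 0.19. Cxcl13, a chemokine that attracts B cells, was the fifth, at 0.22. Fabp4 had 337, 609 and 617 normalized counts in PBS replicates 1, 2 and 3, and 801, 1755 and 1697 in IRF5-NP replicates 1, 2 and 3. Like Hdc, it was lowest in PBS replicate 1 and highest in IRF5-NP replicates 2 and 3, a likeness for which it was picked. Kit, above background in 5 samples, was 522nd in this order, at 1.41, and Cpa3 was 46th, at 0.61. Cpa3 was below background in 4 of 6 samples and entered the order through IRF5-NP replicates 1 and 2 alone, so that its place rests mostly on values at background. The places of Fcer1a and Cma1, each above background in 1 sample, are not given for the same reason, and Ms4a2 and Tpsb2 were not ranked.

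The same limit holds for the genes nearest to Cpa3, since its PBS values and that of IRF5-NP replicate 3 were at background, as were those of Cma1 in all samples but IRF5-NP replicate 1. The nearest was Il18r1, a chain of the IL-18 receptor, at 0.29, and Cma1 was the third, at 0.45. Il18r1 had 41.5, 47.6 and 56.3 normalized counts in PBS replicates 1, 2 and 3, and 165, 86.0 and 104 in IRF5-NP replicates 1, 2 and 3. As in Cpa3 and Cma1, the highest value was that of IRF5-NP replicate 1, and Il18r1 was named here for its likeness to Cpa3. Fn1, Col4a2 and Fasn were the other genes among the 5 nearest, at 0.44 to 0.46, and Hdc was 29th, at 0.61. These orders rest on 5 samples and on the contrast that chose Hdc and Cpa3, and no test is attached to them.

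**Figure D3:**
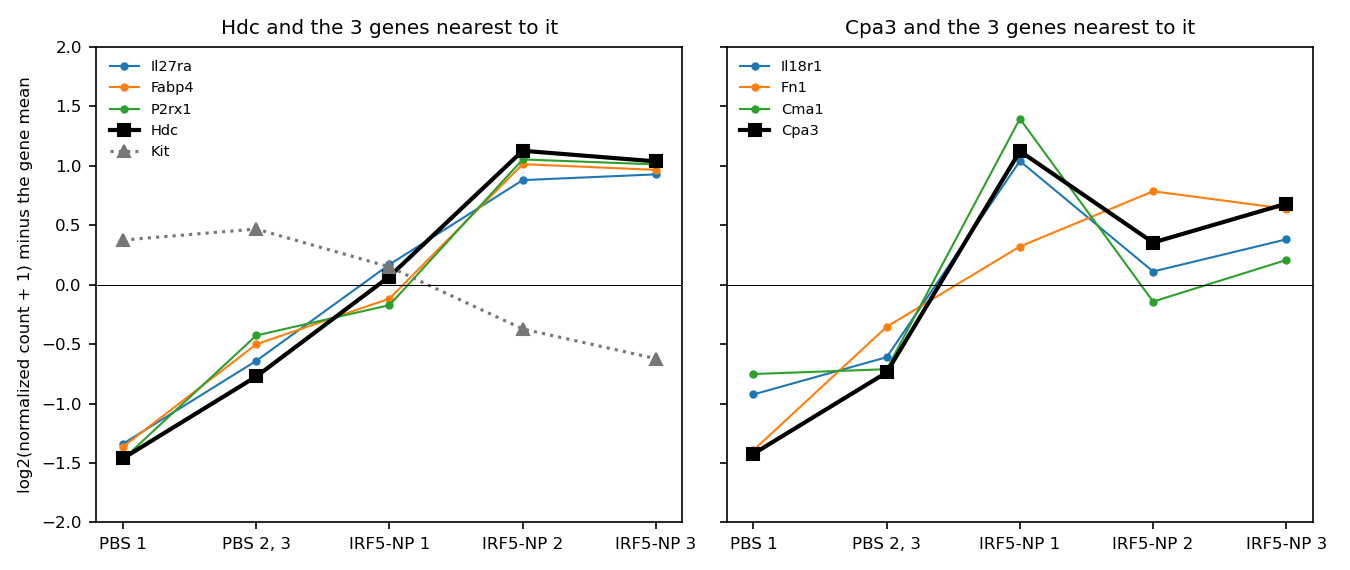
Log2 values with a pseudocount of 1, centred on each gene's mean (vertical axis), over the 5 samples counted, for Hdc with its 3 nearest genes and Kit (left) and for Cpa3 with its 3 nearest genes (right). Hdc peaks in IRF5-NP replicates 2 and 3, whereas Cpa3 and Cma1 peak in IRF5-NP replicate 1 and Kit is lowest in IRF5-NP replicate 3.

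The difference in Hdc had the same direction in all 16 alternative settings, in which its log2 fold change was between 1.52 and 2.20. That direction was largely fixed beforehand. A change of filter, variance prior, test or adjustment leaves the estimate as it is. Leaving out 1 sample cannot turn the sign of groups that do not overlap. Shifting each sample to a common median raised every log2 fold change by 0.24, to 2.10 for Hdc and -0.47 for Kit. The lowest value of Hdc came without PBS replicate 1 and the highest without IRF5-NP replicate 1. The log2 fold change of Kit was negative and that of Cma1 positive in the same settings, and 0 of 16 brought either past the threshold. The groups of these genes did not overlap either, so that their signs were also largely fixed beforehand. With the negative control mean subtracted, Kit was at -2.34 (standard error 1.77) and Cma1 at 2.87 (standard error 1.91).

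**Figure D4:**
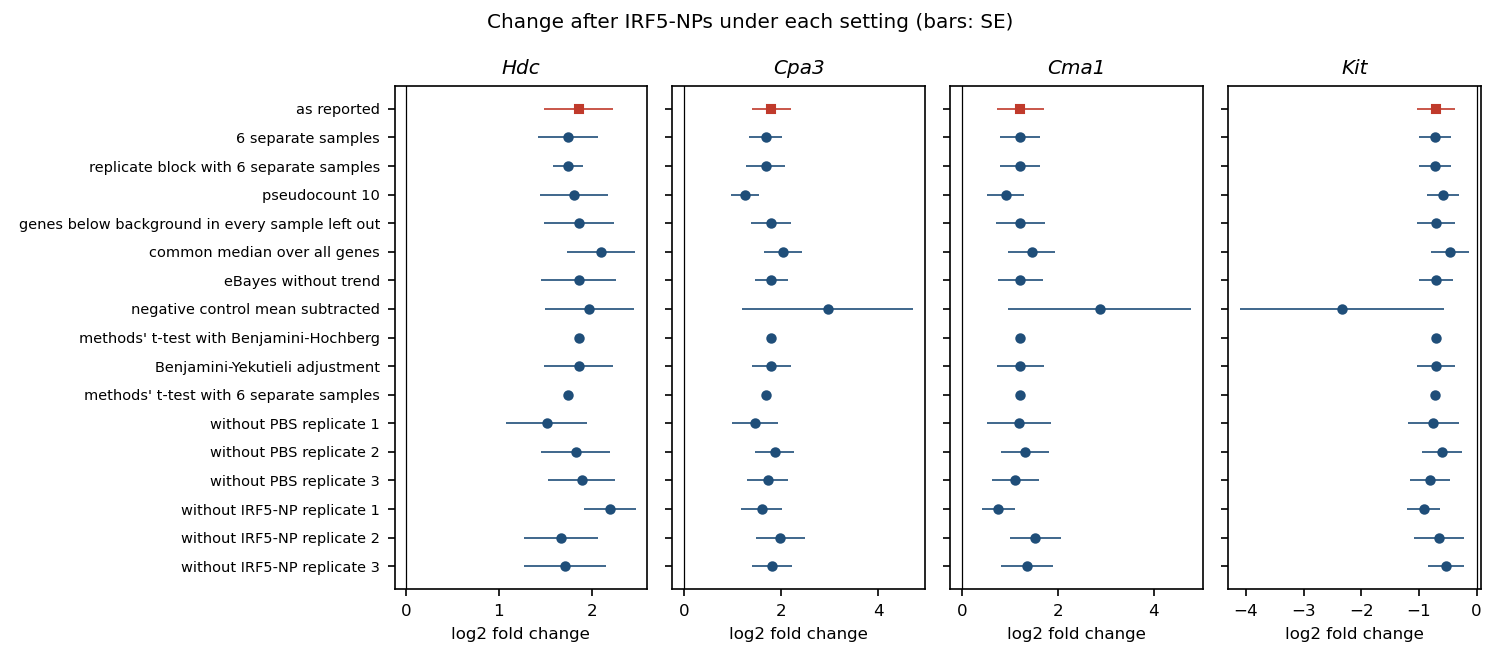
Log2 fold change of IRF5-NPs over PBS (horizontal axis, bars are standard errors, not defined for the methods' t-test) of Hdc, Cpa3, Cma1 and Kit as reported (square) and in 16 other settings (circles). Hdc is between 1.52 and 2.20, and the interval of the other genes widens when the mean of the negative controls is subtracted.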

How the data were processed

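Gene expression of F4/80+, CD11b+ peritoneal macrophages was measured with the nCounter assay in 3 PBS and 3 IRF5-NP samples. The deposited values are a signal, the nCounter count scaled by the authors in nSolver to the geometric mean of housekeeping genes after a quality check with NanoStringQCPro, as the methods state for cultured macrophages. They are on a linear scale, although the methods name a log2 transform, and the 8 negative and 6 positive controls are raw counts. Dividing a sample's gene values by a single factor gave whole counts, to a tolerance of 0.01 normalized counts, for all 754 genes. Groups came from the sample titles. Expression was compared on log2 values with a pseudocount of 1 in limma 3.58.1 (R 4.3.3, lmFit and eBayes with trend, two-sided, Benjamini-Hochberg adjustment over all 754 genes, threshold 0.05), with PBS replicates 2 and 3 averaged. This code was tested on simulated data. The members and the gene lists were chosen with earlier results of these data known. Named were the 7 genes, the 5 nearest in profile to Hdc and to Cpa3, and genes of the lists where these are described, first those past the threshold. One of the genes nearest to Hdc is not reported here. P-values measure the spread between these samples, which may be technical. The alternatives changed the samples counted, the pairing, pseudocount, filter, scaling, variance prior, background, test and adjustment, and left out each sample in turn. Python 3.11.15 with numpy 2.4.6, scipy 1.17.1, pandas 2.3.3 and matplotlib 3.10.9 was used for tables and figures.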

Additional observations from a re-analysis of the deposited data

How the results depend on the processing

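Hdc kept its direction in 16 of 16 alternatives, and its change moved by less than the spread between replicates in each of them. Since neither the groups of Hdc nor those of Cpa3 overlapped, the direction of both was largely fixed beforehand. Cpa3 kept its direction as well, with a log2 fold change of 1.46 to 1.98 over the samples left out in turn, of 1.26 with a pseudocount of 10 and of 2.96 with the negative control mean subtracted, where PBS values fell to the floor. Against 72 genes past the threshold, 19 higher and 53 lower, 6 separate samples gave 121, 37 higher and 84 lower. A fit with the replicate block on 6 separate samples gave 135, 52 higher and 83 lower, and a log2 fold change of 1.75 for Hdc, and Ptgs1 passed there (adjusted p = 0.0415). The correlation across 482 genes between deviations of samples with the same number was 0.158, 0.178 and 0.0953. For PBS replicates 1 and 2 the sample with the same number was the nearest, whereas PBS replicate 3 was nearer to IRF5-NP replicate 2 (0.144). Whether samples with the same number belong together was not tested. The common median gave 42 higher and 36 lower genes, and no trend gave 41 genes, 8 higher and 33 lower. Subtraction of the negative control mean gave 24, 4 higher and 20 lower. The methods' t-test with Benjamini-Hochberg gave 0 genes, 0 higher and 0 lower (unadjusted, 125 genes had a p under 0.05, where limma had 191). On 6 separate samples, a setting chosen after seeing the data, it gave 43, 12 higher and 31 lower. Benjamini-Yekutieli adjustment gave 21, 2 higher and 19 lower. With each sample left out the count was 21 (without IRF5-NP replicate 3) to 83, with 2 to 24 higher and 19 to 59 lower, and it was 35 without PBS replicate 1, where the PBS group has 1 sample left and takes its spread from the other group, and 41 without IRF5-NP replicate 2. Beyond fewer samples in these, the cause was not tested. With the highest negative control probe as the limit, Cma1 was above background in 2 samples in place of 1, and the count did not change for the other 6 genes. The planned test on counts recovered from the values was not run. Depth and background limit Cpa3, Cma1, Fcer1a, Ms4a2 and Tpsb2, and Kit in IRF5-NP replicate 3.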
